A study of Mus musculus with 12 samples.

Results

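The 10 genes described here are those of sphingosine 1-phosphate (S1P) signalling: the receptors S1pr1, S1pr2, S1pr3, S1pr4 and S1pr5, the kinases Sphk1 and Sphk2, the lyase Sgpl1, the phosphatase Sgpp1 and the exporter Spns2. Each gene was read from the probe set that carries its symbol alone, and each of the 10 had 1 such probe set. They are 10 of the 19938 mouse genes that could be read in this way. Total RNA of 12 cell samples was measured on 12 Affymetrix gene arrays, 3 for each of 4 groups. The spontaneous group held cells that had differentiated from induced pluripotent stem cells (iPSCs) for 4 days with no further treatment named. The cardiac group held cells taken at day 4 of an optimized cardiac differentiation, whose added agents are not spelled out in the labels. The sorted group held cardiac progenitor cells (CPCs) enriched at day 4 by flow cytometry for surface FLK1, the product of Kdr, together with PDGFRα, the product of Pdgfra. The control named in the design text was undifferentiated iPSCs at day 0. Strain, line and genotype are not given in the labels, and nothing there says whether the arrays of a group came from separate cultures, so p-values measure the spread between arrays, which may be technical.

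S1P is a lipid made inside cells when SPHK1 or SPHK2 phosphorylates sphingosine, which itself comes from ceramide. It can be turned back into sphingosine by SGPP1, cleaved irreversibly by the lyase SGPL1, or carried out of the cell by SPNS2. Outside the cell it acts on the G protein-coupled receptors S1PR1 to S1PR5. In zebrafish, loss of s1pr2 or of spns2 keeps the heart precursors of the left and right sides from meeting at the midline, and in mouse embryos S1pr1 is needed for the maturation of blood vessels.

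The values are log2 RMA signals, whose array medians ran from 6.0935 to 6.2575, and precision is set by the small number of arrays. Not every library went with its label. Kdr had 10.23, 6.25 and 6.03 in the sorted arrays 1, 2 and 3, against 5.50, 5.54 and 5.78 at day 0, and Pdgfra had 11.13, 8.47 and 8.29 in the sorted arrays, against 8.75, 9.14 and 8.81 at day 0. Sorted replicates 2 and 3 thus lay near day 0 for both genes of the gate, and the differences of the 10 genes between sorted cells and day 0 are also given without them. That leaves 1 sorted array, which has no spread of its own, so only the size of a sorted difference is read from it. Cardiac replicate 1 had 5.42 for Kdr, beside 10.81 and 9.01 in the other cardiac arrays. Pou5f1, a pluripotency factor, was still at 9.80 to 11.37 in the 9 day 4 arrays, against 11.24 to 11.57 at day 0. The mean over 11 markers of nascent and cardiogenic mesoderm was 8.72 to 9.07 in spontaneous, 7.15 to 9.03 in cardiac and 7.23 to 9.01 in sorted arrays, against 6.68 to 6.71 at day 0. That over 7 endoderm markers was 6.54 to 7.51 in spontaneous, 7.85 to 8.51 in cardiac and 6.45 to 7.48 in sorted arrays, against 6.03 to 6.17 at day 0. The lowest correlation between arrays of a group was 0.9922 in the spontaneous, 0.973 in the cardiac, 0.9656 in the sorted and 0.989 in the day 0 group.

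None of the 10 genes passed the test for a change in any of 6 comparisons between groups. A gene was called at a Benjamini-Hochberg adjusted p under 0.05 over all 19938 genes in limma, with a difference of at least 1 on the log2 scale. The calls were 0 of 10 for spontaneous, cardiac and sorted cells against day 0, where 3.57%, 2.20% and 2.11% of all genes were called. They were 0 of 10 as well for cardiac cells against spontaneous cells, for sorted cells against cardiac cells and for sorted cells against spontaneous cells, where 0%, 0% and 0.00502% of all genes were called. The last share is 1 gene, the immediate early gene Fos, picked out after its value was seen (1.78 higher in sorted cells on the log2 scale, adjusted p = 0.028 in limma). That call ended with arrays centred on their medians, with only the arrays compared, and without spontaneous replicate 3 or sorted replicate 1. Of the 60 differences, 11 had an unadjusted p under 0.05 in limma and the smallest adjusted p was 0.0558. Against day 0, the 11 included 3, 3 and 1 of 10 genes in spontaneous, cardiac and sorted cells. Over all 19938 genes, 4781, 4458 and 3855 had such a p there. For cardiac minus spontaneous, sorted minus cardiac and sorted minus spontaneous, the counts were 1, 1 and 2 of 10. Over all genes they were 743, 3135 and 2310. In 55 of the 60, the 95% interval of the difference lay within 1 log2 unit of 0 on either side, and in 5 it reached 1 or beyond. In these 55, a change of the signal as large as a doubling or a halving lay outside the interval.

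**Figure D1:**
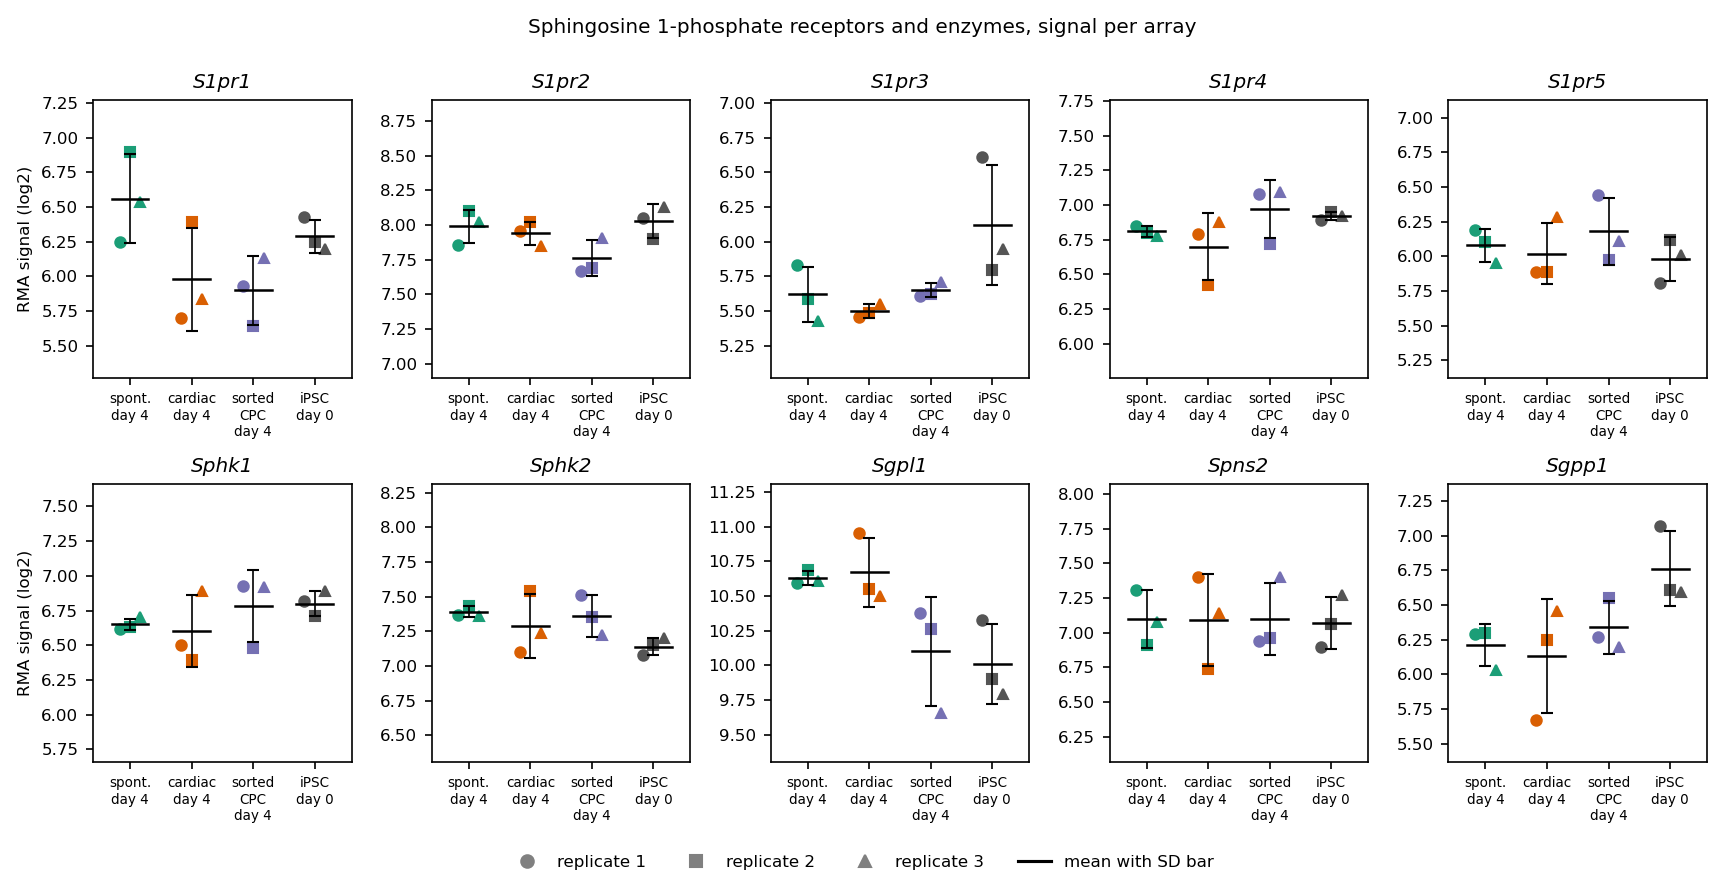
RMA signal (log2) of the 10 genes in each array, grouped as spontaneous, cardiac and sorted cells at day 4 and iPSCs at day 0. Points are single arrays with a shape for each replicate number, horizontal lines are group means and bars are SDs (n = 3 arrays). Every panel spans the same height of the log2 scale. Sgpp1 lies highest in the day 0 arrays and Sgpl1 lies highest in the spontaneous and cardiac arrays, while Spns2 has group means of 7.07 to 7.10.

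The widest differences from day 0 were those of the receptor gene S1pr3, the lyase gene Sgpl1 and the phosphatase gene Sgpp1, and the 250 bases before their RefSeq transcription starts (GRCm38.p6) are shown to set their upstream regions beside each other. Capitals mark the GC box GGGCGG and the KLF-type motif CACCC on either strand; TTCNNNGAA, a STAT-type motif, was searched in the same way. The windows are chr10:61147685-61147934 on the minus strand for Sgpl1, chr13:51408368-51408617 on the plus strand for S1pr3 and chr12:75735730-75735979 on the minus strand for Sgpp1.
Sgpl1: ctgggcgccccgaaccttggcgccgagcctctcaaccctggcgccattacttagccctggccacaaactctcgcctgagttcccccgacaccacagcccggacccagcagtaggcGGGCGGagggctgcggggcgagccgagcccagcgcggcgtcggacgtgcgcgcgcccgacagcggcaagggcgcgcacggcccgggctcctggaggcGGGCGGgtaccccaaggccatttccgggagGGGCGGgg
S1pr3: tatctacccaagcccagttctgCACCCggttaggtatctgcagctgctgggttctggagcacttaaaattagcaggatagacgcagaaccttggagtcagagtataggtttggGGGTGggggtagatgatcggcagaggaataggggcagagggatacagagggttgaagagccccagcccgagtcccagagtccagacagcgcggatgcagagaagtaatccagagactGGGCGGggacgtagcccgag
Sgpp1: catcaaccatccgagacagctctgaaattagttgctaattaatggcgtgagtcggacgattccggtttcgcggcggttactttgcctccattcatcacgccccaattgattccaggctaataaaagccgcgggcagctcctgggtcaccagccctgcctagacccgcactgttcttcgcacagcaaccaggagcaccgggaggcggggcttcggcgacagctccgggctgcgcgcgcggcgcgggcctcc
The Sgpl1 window held 3 GC boxes and no CACCC, with 31 CpG dinucleotides, more than in 94.8% of all windows. The S1pr3 window held 1 GC box and 2 CACCC motifs with 9 CpGs, and the Sgpp1 window held neither motif with 24 CpGs. The STAT-type motif was in none of the 3. Over 32536 promoter windows of the same length, 33.0% held a GC box, 52.1% a CACCC and 7.04% a TTCNNNGAA, and the median CpG number was 6. No match overlapped with another motif's in the windows shown. These matches describe letters and not bound sites. The promoter table covered 9 of the 10 genes, without S1pr1.

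Among the receptors, S1pr3 (probe set 10405179), which couples to Gi, Gq and G12/13 proteins, had the largest differences from day 0. Its signals were 5.83, 5.59 and 5.43 in spontaneous, 5.46, 5.49 and 5.55 in cardiac and 5.61, 5.62 and 5.71 in sorted cells, against 6.61, 5.80 and 5.95 at day 0. All cardiac and sorted arrays lay below the lowest day 0 array, and 1 spontaneous array overlapped with day 0. The difference from day 0 was -0.50 ± 0.18 (SE; 95% interval -0.88 to -0.12) in spontaneous, -0.62 ± 0.18 (-1.0 to -0.24) in cardiac and -0.47 ± 0.18 (-0.85 to -0.09) in sorted cells. None was called, with adjusted p = 0.0936, 0.0558 and 0.157 in limma for spontaneous, cardiac and sorted cells. Day 0 replicate 1 was the highest of the 12 arrays, and without it the differences were -0.26, -0.37 and -0.23 in spontaneous, cardiac and sorted cells. Without sorted replicates 2 and 3, the sorted difference was -0.51. The means of the 3 day 4 groups, 5.62 ± 0.20, 5.50 ± 0.05 and 5.65 ± 0.05 in spontaneous, cardiac and sorted cells (SD, n = 3 each), lay below every array median, so S1pr3 is not shown to exceed the background of the arrays there. Day 0 replicates 2 and 3 also lay below every array median, and the day 0 mean of 6.12 was within the range of these medians. S1pr3 is thus not clearly shown to exceed background at day 0 either.

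A list of 8 fibroblast and feeder cell markers was also lower at day 4, with medians of -0.48, -0.66 and -0.50 in spontaneous, cardiac and sorted cells. Not every array or marker followed. Its mean signal over the list ran from 6.17 to 6.34 in spontaneous, 5.98 to 6.21 in cardiac and 6.05 to 6.55 in sorted arrays, against 6.99, 6.46 and 6.95 at day 0. The sorted array at 6.55 lay above the day 0 array at 6.46. Of the 8 markers, 2, 2 and 1 were called lower in spontaneous, cardiac and sorted cells, among them Dcn, which encodes the matrix proteoglycan decorin, in all 3. Col1a1 was not called in any group. Acta2 differed by 0.83 in spontaneous and -0.13 in cardiac cells and was not called. The part of these cells in the S1pr3 values was not tested. In bulk RNA, fewer cells of a type and less RNA per cell cannot be told apart.

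S1pr1 (probe set 10501586), the Gi-coupled receptor of endothelial cells and lymphocytes, had its largest differences between day 4 groups. It had 6.25, 6.90 and 6.54 in spontaneous, 5.70, 6.39 and 5.84 in cardiac and 5.93, 5.64 and 6.13 in sorted cells, against 6.43, 6.25 and 6.20 at day 0. The 3 sorted arrays lay below all spontaneous and all day 0 arrays, whereas the cardiac arrays overlapped with both. Sorted cells differed from spontaneous cells by -0.66 ± 0.20 (SE; 95% interval -1.09 to -0.22; adjusted p = 0.321 in limma), and by -0.63 without sorted replicates 2 and 3. Cardiac cells differed from spontaneous cells by -0.59 (-1.02 to -0.15; adjusted p = 0.999). Against day 0, the differences were 0.27 (-0.17 to 0.70) in spontaneous, -0.32 (-0.75 to 0.12) in cardiac and -0.39 (-0.83 to 0.05) in sorted cells, the last being -0.36 without sorted replicates 2 and 3. The group means of 5.98 ± 0.37 in cardiac and 5.90 ± 0.25 in sorted cells (SD, n = 3 each) were below every array median. The mean over 11 endothelial and haematopoietic markers was 5.92 to 6.14 in spontaneous, 6.11 to 6.26 in cardiac and 5.85 to 6.07 in sorted arrays, against 6.24 to 6.46 at day 0. Pecam1 and Cd34 were called lower in each of the 3 day 4 groups, and no marker of that list was called higher with all arrays. Lmo2 of the same list was higher by 1.39, 1.24 and 0.48 in spontaneous, cardiac and sorted cells. It was not called (adjusted p = 0.0674, 0.12 and 0.627 in limma). Without spontaneous replicate 1, 1 marker was called higher in spontaneous cells, and without cardiac replicate 1, 2 were in cardiac cells. The part of endothelial cells in the S1pr1 values was not tested.

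S1pr2 (probe set 10591412), the receptor that couples strongly to G12/13 proteins, had group means within 0.27 of each other. It had 7.86, 8.10 and 8.02 in spontaneous, 7.96, 8.02 and 7.85 in cardiac and 7.67, 7.69 and 7.91 in sorted cells, against 8.05, 7.90 and 8.13 at day 0. The sorted arrays included the lowest values but overlapped with every other group. The largest difference, that of sorted cells from day 0, was -0.27 with a 95% interval of -0.55 to 0.01 (adjusted p = 0.282 in limma), and was -0.35 without sorted replicates 2 and 3.

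S1pr4 and S1pr5, whose products are known mainly from lymphoid and myeloid cells and from natural killer cells and oligodendrocytes, had no difference past the test. S1pr4 (probe set 10371217) had 6.85, 6.80 and 6.78 in spontaneous, 6.79, 6.42 and 6.88 in cardiac and 7.08, 6.72 and 7.09 in sorted cells, against 6.89, 6.95 and 6.92 at day 0. All spontaneous and cardiac arrays were below the lowest day 0 array, by small margins, and the intervals of their differences ran from -0.42 to 0.20 and from -0.53 to 0.09. S1pr5 (probe set 10591494) ranged from 5.81 to 6.44 over the 12 arrays with a median of 6.06, and its groups overlapped in all 6 comparisons. Its means in spontaneous, cardiac and day 0 cells were below every array median. Without sorted replicates 2 and 3, the sorted difference from day 0 was 0.47 for S1pr5, against 0.20 with them, and 0.16 for S1pr4, against 0.05 with them. A list of 8 lymphoid and myeloid markers had a mean of 4.61 to 5.06 over the 9 day 4 arrays, against 4.94 to 4.98 at day 0, below the array medians, and none of the 8 was called.

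Of the enzymes, the lyase gene Sgpl1 (probe set 10369413) had the largest positive differences. Its signals were 10.59, 10.69 and 10.61 in spontaneous, 10.95, 10.55 and 10.50 in cardiac and 10.38, 10.26 and 9.66 in sorted cells, against 10.33, 9.90 and 9.79 at day 0. Every spontaneous and cardiac array exceeded every day 0 array and every sorted array, while the sorted arrays overlapped with day 0. The difference from day 0 was 0.62 ± 0.19 (SE; 95% interval 0.20 to 1.04), a 1.54-fold signal, in spontaneous cells and 0.66 ± 0.19 (0.24 to 1.08), a 1.58-fold signal, in cardiac cells. The adjusted p was 0.0619 and 0.0626 in limma and both differences were under the minimum of 1, so neither was called. Sorted cells differed from day 0 by 0.09 (-0.33 to 0.51; adjusted p = 0.858). They differed from cardiac cells by -0.57 (-0.99 to -0.15; adjusted p = 0.273) and from spontaneous cells by -0.53 (-0.95 to -0.11; adjusted p = 0.357). These sorted values moved when the arrays near day 0 for the gate's genes were left out: without sorted replicates 2 and 3 they were 0.38 from day 0, -0.28 from cardiac and -0.25 from spontaneous cells.

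The phosphatase gene Sgpp1 (probe set 10401028) went the other way. It had 6.29, 6.30 and 6.03 in spontaneous, 5.67, 6.25 and 6.46 in cardiac and 6.27, 6.55 and 6.20 in sorted cells, against 7.07, 6.61 and 6.59 at day 0. All 9 day 4 arrays lay below the lowest day 0 array, with sorted replicate 2 close to it. The mean was 6.21 in spontaneous and 6.13 in cardiac cells, within the range of the array medians, and 6.34 in sorted cells, just above it. Sgpp1 is therefore not clearly shown to exceed the background of the arrays at day 4. The differences were -0.55 ± 0.20 (SE; 95% interval -0.98 to -0.12) in spontaneous, -0.63 ± 0.20 (-1.06 to -0.20) in cardiac and -0.41 ± 0.20 (-0.84 to 0.01) in sorted cells. Their adjusted p was 0.102, 0.0801 and 0.277 in limma, and the sorted difference was -0.49 without sorted replicates 2 and 3. Without day 0 replicate 1, which was also the highest day 0 array for S1pr3 and for Sgpl1, the differences of Sgpp1 were -0.40, -0.47 and -0.26 and those of Sgpl1 0.79, 0.82 and 0.26 in spontaneous, cardiac and sorted cells. The mean over 10 pluripotency markers was also lower at day 4. It was 8.79 to 9.28 in spontaneous, 8.80 to 9.54 in cardiac and 7.81 to 9.54 in sorted arrays, against 10.56 to 10.80 at day 0. Of the 10 markers, 6, 5 and 5 were called lower. Single day 4 arrays did not all follow: cardiac replicate 1 and sorted replicate 2 both had a marker mean of 9.54, with Sgpp1 at 5.67 and 6.55. The part of undifferentiated cells in the Sgpp1 values was not tested.

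The 95% intervals of the sphingosine kinase genes against day 0 reached no further than -0.55 and 0.54. Sphk1 (probe set 10382802), whose product is largely cytosolic, had 6.62, 6.63 and 6.70 in spontaneous, 6.5, 6.39 and 6.89 in cardiac and 6.93, 6.48 and 6.92 in sorted cells, against 6.82, 6.71 and 6.89 at day 0. Sphk2 (probe set 10563362), whose product is also found in the nucleus, had 7.37, 7.43 and 7.36 in spontaneous, 7.10, 7.54 and 7.24 in cardiac and 7.51, 7.35 and 7.22 in sorted cells, against 7.08, 7.15 and 7.2 at day 0. The spontaneous arrays lay below all day 0 arrays for Sphk1 and above all of them for Sphk2, and the sorted arrays were also above day 0 for Sphk2. The spontaneous differences were -0.16 (95% interval -0.49 to 0.18; adjusted p = 0.598 in limma) for Sphk1 and 0.24 (-0.05 to 0.54; adjusted p = 0.309) for Sphk2. The sorted differences were -0.03 for Sphk1 and 0.22 for Sphk2, and 0.13 and 0.37 without sorted replicates 2 and 3.

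The exporter gene Spns2 (probe set 10388194) varied least between groups. It had 7.31, 6.91 and 7.08 in spontaneous, 7.40, 6.74 and 7.14 in cardiac and 6.94, 6.96 and 7.40 in sorted cells, against 6.90, 7.06 and 7.27 at day 0. The 4 group means covered 0.03 on the log2 scale, less than the SD within any group, which was 0.19 to 0.33. Its differences from day 0 were 0.03, 0.02 and 0.03 in spontaneous, cardiac and sorted cells, and the widest of the 3 intervals ended at -0.39 and 0.44. Without sorted replicates 2 and 3 the sorted difference was -0.13.

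**Figure D2:**
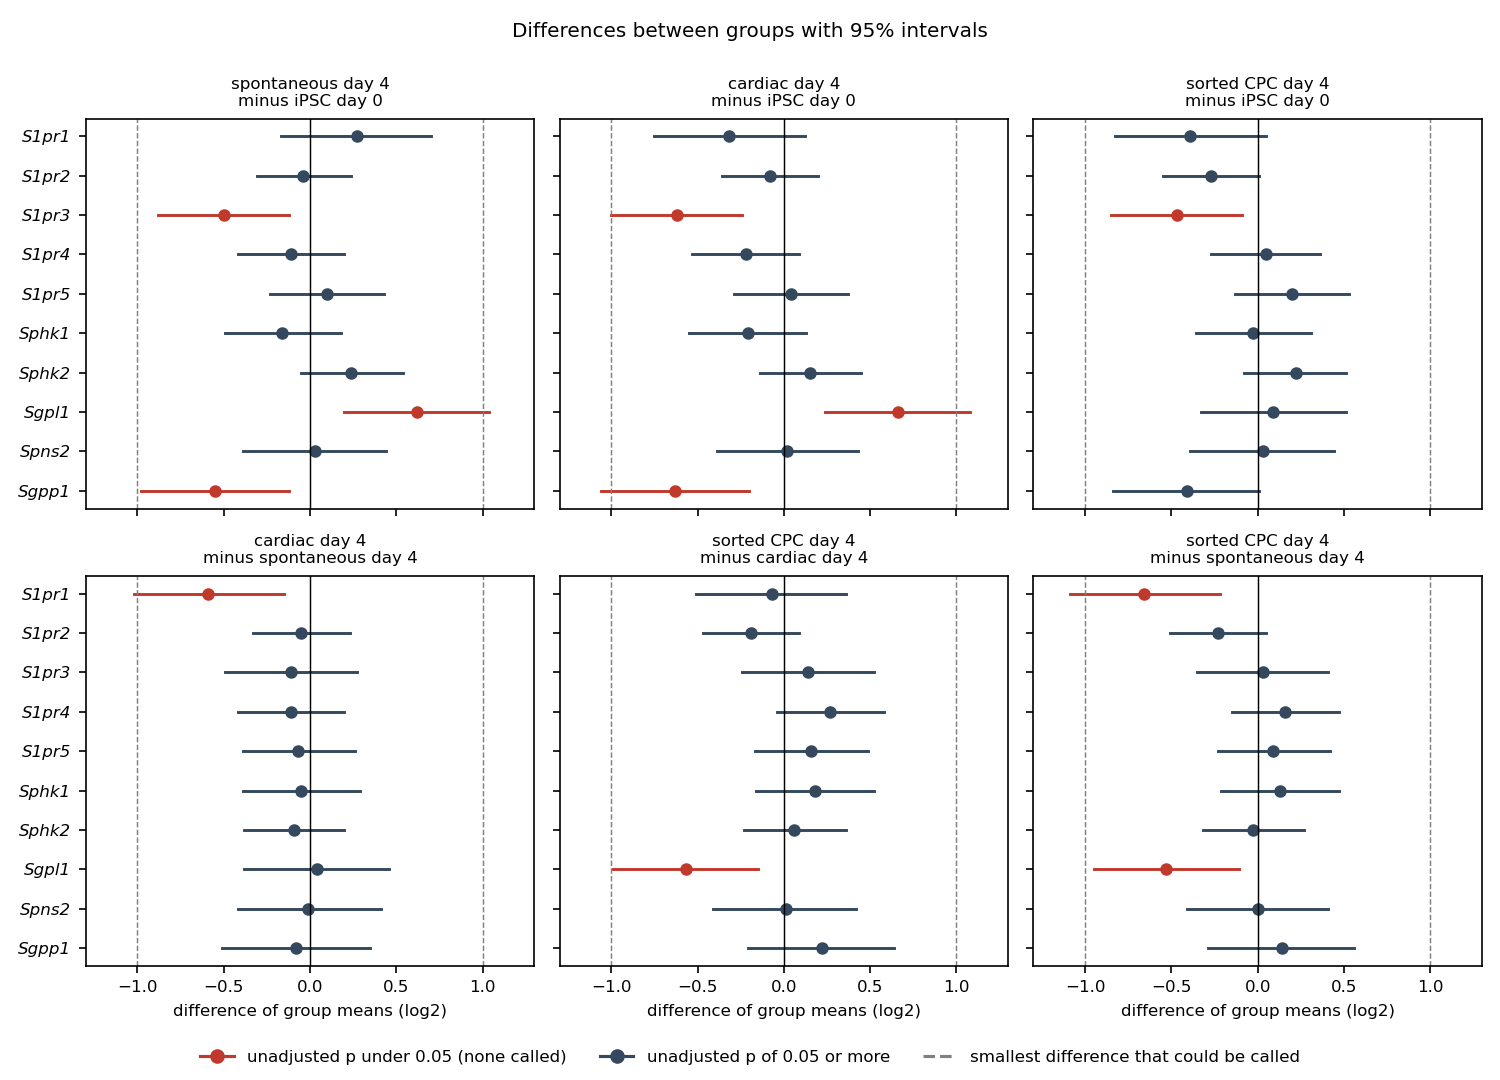
Difference of group means (log2, first named group minus second) with its 95% interval from limma for the 10 genes, in the 3 comparisons of day 4 groups with day 0 (top) and the 3 between day 4 groups (bottom). Red marks the 11 differences with an unadjusted p under 0.05, none of which was called, and dashed lines mark a difference of 1. S1pr3 and Sgpp1 lie left of 0 in all 3 top panels, and Sgpl1 lies right of 0 for spontaneous and cardiac cells.

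Over the 10 genes, separation of the arrays was counted beside its share among all genes, with no test of the difference. The arrays of both groups did not overlap for 5 of 10 genes in spontaneous cells against day 0 (41.0% of all genes), for 4 in cardiac cells (29.0%) and for 4 in sorted cells (21.5%). Between day 4 groups this held for 0 of 10 in cardiac against spontaneous cells (8.99% of all genes), for 2 in sorted against cardiac cells (13.1%) and for 2 in sorted against spontaneous cells (19.6%). The median size of the difference from day 0, whatever its sign, was 0.20, 0.22 and 0.21 over the 10 genes in spontaneous, cardiac and sorted cells, against 0.16, 0.18 and 0.15 over all genes. The 3 comparisons with day 0 share the day 0 arrays. In the order of group means, no pair of neighbouring groups passed the test for any of the 10 genes.

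Genes around the pathway were counted in 5 lists, to be read against all genes, of which 1.99%, 1.26% and 0.787% were called higher and 1.57%, 0.943% and 1.32% lower in spontaneous, cardiac and sorted cells against day 0. Of 24 genes of ceramide and sphingosine supply, 1, 1 and 0 were called lower in spontaneous, cardiac and sorted cells and 0 higher, with list medians of 0.05, 0.03 and 0.01 on the log2 scale, against medians of -0.03, -0.05 and 0.03 over all genes. The gene called was Sgms2, a sphingomyelin synthase, which had 5.22, 5.71 and 5.71 in spontaneous, 5.79, 5.46 and 5.68 in cardiac and 5.86, 5.77 and 5.85 in sorted cells, against 6.81, 6.37 and 6.79 at day 0. Its day 4 means lay below every array median, so the probe set is not shown to exceed background there and the size of the fall is uncertain. It fell by 1.11 in spontaneous (adjusted p = 0.00143 in limma) and by 1.01 in cardiac cells (adjusted p = 0.00302). Both calls sat at the minimum difference: the first ended without spontaneous replicate 1 (-0.95), and the second with arrays centred on their medians (-0.93), after repeated quantile normalization (-0.94), or without day 0 replicate 1 or 3 or cardiac replicate 2 (-0.92 to -0.94). Degs1, the dihydroceramide desaturase, and Asah1, the acid ceramidase that releases sphingosine, were not called, with differences of 0.41 and -0.54 in spontaneous cells.

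Of 10 other S1P transporters, carriers and phosphatases, 0, 0 and 1 were called lower in spontaneous, cardiac and sorted cells and 0 higher, with list medians of -0.16, -0.07 and 0.01. A further 3, 2 and 2 passed the adjusted p but not the minimum difference. The share of all genes that did so is not given here, so these counts are not read as a trait of the list. The call was that of Plpp1, a lipid phosphate phosphatase that acts on S1P outside the cell, with 6.47, 7.44 and 7.13 in sorted cells against 7.95, 8.06 and 8.45 at day 0. It fell by 1.14 (adjusted p = 0.0104 in limma), and the call ended without day 0 replicate 3 (-0.99) or sorted replicate 1 (-0.87), while without sorted replicates 2 and 3 the difference was -1.69. Plpp1 had differences of -0.94 and -1.0 in spontaneous and cardiac cells (adjusted p = 0.0185 and 0.0209), the second short of the minimum before rounding. Plpp2, of the same family, was at 9.13 ± 0.01 in spontaneous, 9.21 ± 0.17 in cardiac and 8.98 ± 0.08 in sorted cells, against 9.13 ± 0.14 at day 0 (SD, n = 3 each). The membrane transporter genes Abcg2 and Abca1, whose products can export S1P, were not called either. Abcg2 had 9.32, 9.55 and 9.59 in spontaneous, 9.28, 9.47 and 9.28 in cardiac and 9.21, 9.63 and 9.97 in sorted cells, against 8.57, 8.77 and 8.89 at day 0, so that every day 4 array was above day 0. Its differences were 0.74, 0.60 and 0.86 (adjusted p = 0.0183, 0.0612 and 0.0128 in limma). Abca1, named after its values were seen, differed by -0.98, -0.75 and -0.99 in spontaneous, cardiac and sorted cells (adjusted p = 0.00473, 0.0261 and 0.00613), with day 4 means below every array median. Without sorted replicates 2 and 3, the sorted difference of Abca1 was -1.09, from the 1 sorted array left.

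Downstream of the receptors, Gnai1 and Arrb1 rose in all 3 day 4 groups. They were the 2 genes called higher, in each comparison with day 0, among 18 G proteins and effectors, of which 0 were called lower, and the list medians were 0.27, 0.16 and -0.02 in spontaneous, cardiac and sorted cells. Gnai1, which encodes an α subunit of the inhibitory G proteins, had 8.95, 8.66 and 8.75 in spontaneous, 8.18, 8.90 and 8.77 in cardiac and 8.76, 8.73 and 8.83 in sorted cells, against 6.89, 7.40 and 7.56 at day 0. No day 4 array overlapped with day 0, and the signal was 2.84-fold, 2.52-fold and 2.80-fold that of day 0 in spontaneous, cardiac and sorted cells (adjusted p = 0.00103, 0.00255 and 0.00146 in limma).

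Arrb1, which encodes β-arrestin 1, a protein that binds activated receptors and ends their G protein signalling, had 8.24, 8.46 and 8.24 in spontaneous, 8.05, 8.66 and 8.09 in cardiac and 8.49, 8.06 and 7.94 in sorted cells, against 7.25, 7.03 and 6.82 at day 0. It rose by 1.28, 1.23 and 1.13 in spontaneous, cardiac and sorted cells (adjusted p = 0.00206, 0.0032 and 0.00527 in limma), and the sorted call ended without sorted replicate 1 (0.97), while the sorted difference was 1.46 without sorted replicates 2 and 3. The abundant partners Gnai3 and Rhoa, a small GTPase that acts on the cytoskeleton, were not called. Gnai3 differed from day 0 by 0.54, 0.42 and 0.32 (adjusted p = 0.00335, 0.0166 and 0.0614 in limma), so that in spontaneous and cardiac cells it missed only the minimum difference, and Rhoa by 0.10, 0.08 and 0.09 in spontaneous, cardiac and sorted cells. In all, 5, 2 and 1 of the 18 genes passed the adjusted p but not the minimum. In spontaneous cells these were Gnai2 (0.68), Gnai3 (0.54), Rock1 (0.72), Akt1 (0.68) and Rac1 (0.36). In cardiac cells they were Gnai2 (0.61) and Gnai3, and in sorted cells Gnai2 (0.43). Without the share of all genes beside them, these counts are not read as a trait of the list either.

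Among 7 regulators and response genes of the receptors, Klf2 fell in every day 4 group. KLF2 is a transcription factor that activates S1pr1 in mouse T cells, and it also belongs to the factors of mouse pluripotency. Klf2 had 8.47, 8.55 and 8.82 in spontaneous, 9.0, 8.35 and 8.82 in cardiac and 7.93, 9.32 and 8.40 in sorted cells, against 10.58, 11.08 and 10.92 at day 0. All 9 day 4 arrays lay more than 1 log2 unit below the lowest day 0 array. Klf2 differed from day 0 by -2.25, -2.14 and -2.31 in spontaneous, cardiac and sorted cells (adjusted p = 0.00074, 0.00131 and 0.000893 in limma), and by -2.93 in sorted cells without sorted replicates 2 and 3. The pluripotency markers given beside Sgpp1 moved with Klf2, and their part in its fall was not tested.

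The list as a whole held 1 gene called higher in each comparison and 2, 1 and 2 called lower in spontaneous, cardiac and sorted cells, with medians of -0.71, -0.74 and -0.02. The gene called higher was Wls, which carries WNT proteins to the cell surface, with rises of 3.09, 2.22 and 2.32 in spontaneous, cardiac and sorted cells. Wls was counted in the list but is no S1P gene, so the count of genes called higher does not describe S1P response genes. Stat3, a transcription factor that acts downstream of several cytokine receptors, had 8.29, 8.22 and 8.18 in sorted cells against 9.20, 9.46 and 9.43 at day 0 and fell by 1.14 there (adjusted p = 0.00131 in limma). Its differences of -0.71 and -0.74 in spontaneous and cardiac cells were below the minimum for a call.

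Ccn2, which encodes a secreted matricellular protein, had 8.81, 8.86 and 9.05 in spontaneous, 9.36, 9.08 and 9.93 in cardiac and 8.13, 10.18 and 10.79 in sorted cells, against 11.27, 11.37 and 10.68 at day 0. It fell by 2.20 in spontaneous cells (adjusted p = 0.0146 in limma), a call that ended without day 0 replicate 1 or 2 or spontaneous replicate 2 (adjusted p = 0.0589 to 0.0607). The sorted arrays were split, and without sorted replicates 2 and 3 the sorted difference was -2.98, from the 1 array left, against -1.40 with them (adjusted p = 0.132 in limma). Its relative Ccn1 had 8.93, 10.66 and 11.89 in the sorted arrays against 10.76, 10.67 and 10.10 at day 0, and was not called in any group with all arrays. Ccn1 differed from day 0 by -1.32 in spontaneous and -1.11 in cardiac cells (adjusted p = 0.143 and 0.239 in limma). Ccn2 differed by -1.64 in cardiac cells (adjusted p = 0.0675). Leaving out sorted replicates 2 and 3 did not change the size of these differences. Only the shared estimate of spread differs in that fit, so whether they were called depended on those sorted arrays. The sorted difference of Ccn1 was then -1.58, from the 1 array left.

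**Figure D3:**
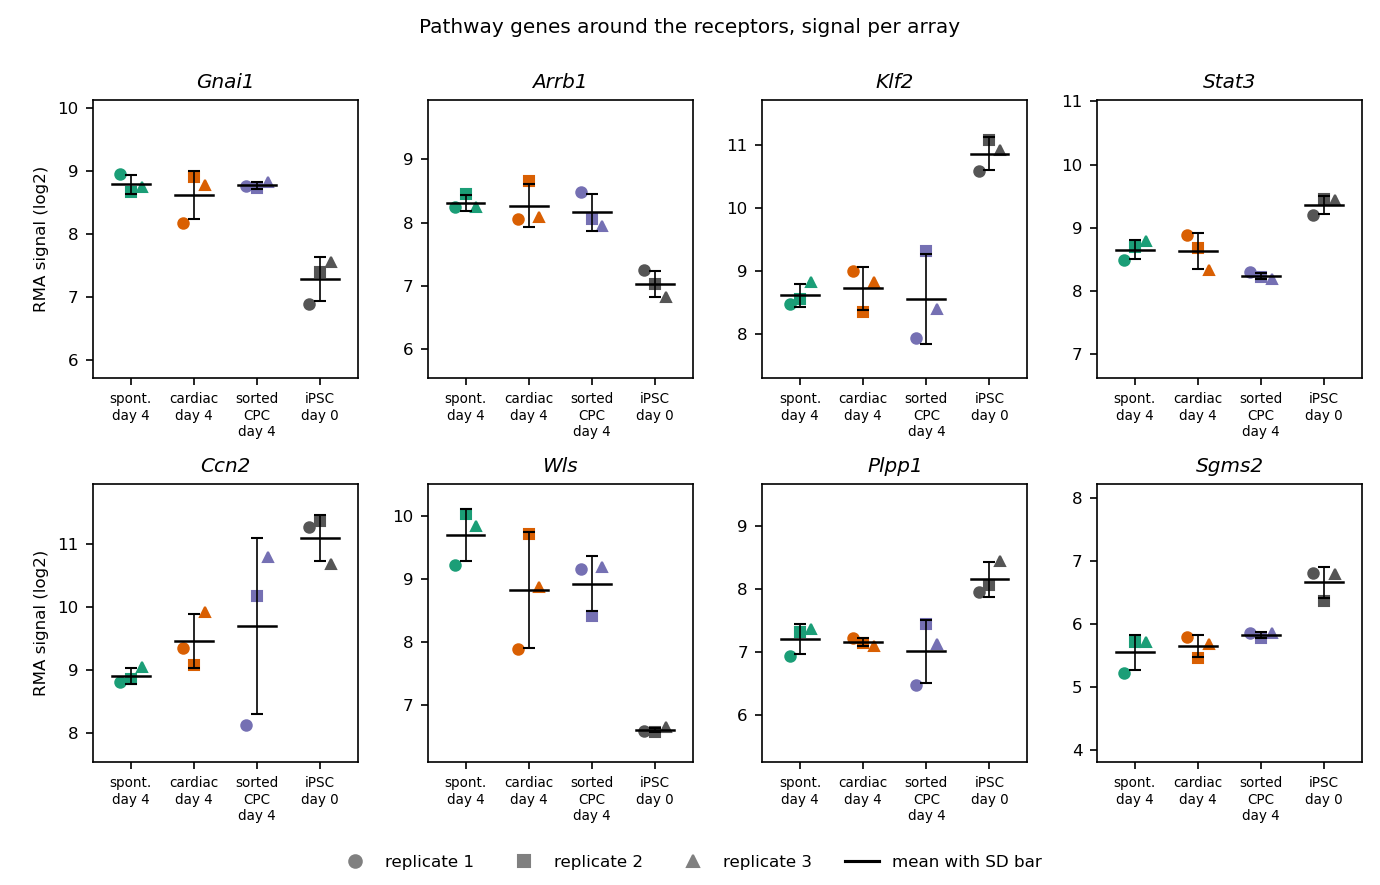
RMA signal (log2) of 8 called genes of the lists around the receptors, in spontaneous, cardiac and sorted cells at day 4 and iPSCs at day 0. Points are single arrays, lines are group means and bars are SDs (n = 3 arrays), with the same height of the log2 scale in every panel. Gnai1, Arrb1 and Wls lie above day 0 and Klf2, Stat3, Plpp1 and Sgms2 below it in all 9 day 4 arrays, whereas Ccn2 in sorted cells spans 8.13 to 10.79.

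Of 5 receptor genes for lysophosphatidic acid, a related lipid, 2 were called higher in each comparison with day 0 and 0 lower, with list medians of 0.47, 0.33 and 0.32 in spontaneous, cardiac and sorted cells. These were Lpar4, with 8.75 ± 0.05, 8.37 ± 0.95 and 8.52 ± 0.65 in spontaneous, cardiac and sorted cells against 5.94 ± 0.53 at day 0 (SD, n = 3 each), and Lpar6, with differences of 1.36, 1.27 and 1.43. The cardiac call of Lpar6 ended without any day 0 array or cardiac replicate 2 or 3 (adjusted p = 0.0506 to 0.0779 in limma). In the 3 comparisons between day 4 groups, 0 genes of these 5 lists were called.

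For the 3 genes with the widest range of group means, the genes most like them over the 12 arrays were ranked by Pearson r, given as a description since the arrays share groups and normalization. Nearest to S1pr1 were Lsp1 (0.924), Snai2 (0.922), Cyp51 (0.901) and Lama4 (0.901). Nearest to Sgpl1 were Mkln1 (0.953), Rnf114 (0.946), Acvr1 (0.943) and Ap1g1 (0.937). Nearest to Sgpp1 were Tfrc (0.873), ND3 (0.87), Vkorc1l1 (0.85) and Mok (0.843). Snai2, which encodes a transcription factor of epithelial to mesenchymal transition, had group means of 5.61 in spontaneous, 5.10 in cardiac and 5.12 in sorted cells, against 5.40 at day 0, in the same order of spontaneous, day 0 and the other groups as S1pr1. Each of these means lay below every array median, so Snai2 is not shown to exceed the background of the arrays. Acvr1, which encodes a type I receptor of bone morphogenetic proteins, had 7.23, 7.28 and 6.94 against 6.81, in the same order as Sgpl1.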

How the data were processed

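The deposited log2 values were made by the authors with RMA in Affymetrix Expression Console 1.3.1 (source: the submitters' processing notes, per the labels). The log base was inferred from that method and from the range of the values, and the probes' genome build was not used here. RMA equalises array distributions, so a shift shared by most genes would not show. Of 35557 probe sets, 21789 had 1 symbol, 1621 several and 12147 were not listed, and the brightest probe set was kept for each of 19938 genes. All arrays entered 1 limma 3.58.1 model under R 4.3.3, with group means and an intensity trend (8 residual and 5.01 prior degrees of freedom), and tests were two-sided. The model was tested on simulated data. Arrays give no read depth. Named were the 10 genes, up to 3 called and 2 brightest uncalled genes per list, the 4 most similar genes of 3 members (leaving aside predicted loci, clones, small RNA, and olfactory and vomeronasal receptors), and Kdr, Pdgfra, Pou5f1 and Lpar4 as checks. Members and lists were chosen with earlier results of these data known. Promoters are from RefSeq (GRCm38.p6). Alternatives were the replicate block, other prior variances, a filter on dim genes, averaged probe sets, other scalings, only the arrays compared, no minimum difference and each array left out. Leaving out sorted replicates 2 and 3, and every setting for list genes, were added after seeing the data.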

Additional observations from a re-analysis of the deposited data

How the results depend on the processing

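Under 21 alternative settings 0 of the 10 genes gained a call. A call needs a difference of at least 1 and the largest reported was 0.66, so settings that alter only the spread could not give one. Of 888 recomputed differences 52 changed sign, 39 of them with 1 array left out. None of the 52 had an unadjusted p under 0.05 in limma as reported, and the largest reported difference among them was 0.22. An adjusted p under 0.05, below the minimum difference, came with the replicate block (Sgpl1, 0.0262 in spontaneous and 0.0284 in cardiac cells against day 0), with median centring (Sgpl1 in spontaneous cells, 0.0477), with only the arrays compared (spontaneous cells, Sgpl1 0.0138 and Sgpp1 0.0263), without day 0 replicate 1 (Sgpl1 in spontaneous cells, 0.0474), without day 0 replicate 2 (S1pr3 in cardiac cells, 0.0423) and without sorted replicates 2 and 3 (Sgpl1, 0.0207 in spontaneous and 0.0212 in cardiac cells). The labels do not say whether a replicate number is shared between groups. Same-number correlations of deviations from the group means ran from -0.382 to 0.307, with 6 of 18 over 0.1. They cannot decide this, since the deviations of a group's 3 arrays sum to 0. The block gave 688, 435 and 416 calls over all genes for spontaneous, cardiac and sorted cells against day 0, beside 711, 439 and 420 without it. Signs changed with median centring (S1pr2 spontaneous minus day 0, 0.04; Sphk2 and Spns2 sorted minus cardiac, -0.02 and -0.08; S1pr3 sorted minus spontaneous, -0.05), repeated quantile normalization (Sphk1 sorted minus day 0, 0.01; S1pr3, Sphk2 and Spns2 sorted minus spontaneous, -0.07, 0.02 and 0.04) and without sorted replicates 2 and 3 (Sphk1 and Spns2 sorted minus day 0, 0.13 and -0.13; Spns2 sorted minus cardiac, -0.16; S1pr3 and Sphk2 sorted minus spontaneous, -0.01 and 0.12). With each array left out in turn, the ranges that crossed 0 were, for spontaneous minus day 0, S1pr2 -0.10 to 0.03 and Spns2 -0.08 to 0.12. For cardiac minus day 0 they were S1pr5 -0.09 to 0.11 and Spns2 -0.13 to 0.20. For sorted minus day 0 they were S1pr4 -0.02 to 0.17, Sgpl1 -0.05 to 0.31, Sphk1 -0.10 to 0.12 and Spns2 -0.12 to 0.12. For cardiac minus spontaneous they were S1pr2 -0.11 to 0.01, S1pr4 -0.20 to 0.03, Sgpl1 -0.11 to 0.12, Sgpp1 -0.24 to 0.15, Sphk1 -0.20 to 0.05, Sphk2 -0.22 to 0.0046 and Spns2 -0.16 to 0.17. For sorted minus cardiac they were S1pr1 -0.21 to 0.14, Sgpp1 -0.01 to 0.38, Sphk2 -0.03 to 0.19 and Spns2 -0.17 to 0.16. For sorted minus spontaneous they were S1pr3 -0.06 to 0.14, S1pr5 -0.04 to 0.20, Sphk2 -0.10 to 0.04 and Spns2 -0.15 to 0.11. Over all genes, calls moved by over 1.5 times to 430 without spontaneous replicate 2 (spontaneous against day 0) and to 284 without day 0 replicate 1 (cardiac against day 0). Calls of sorted cells against each other group also moved without sorted replicates 2 and 3. Their counts are not given, since 1 sorted array is left. The single call of sorted against spontaneous cells became 18 without spontaneous replicate 1, 4 without sorted replicate 3, and 0 with median centring, only the arrays compared, without spontaneous replicate 3 or without sorted replicate 1. The 0 calls of cardiac against spontaneous cells became 1 without spontaneous replicate 1, and those of sorted against cardiac cells 1 without sorted replicate 3; the causes were not tested. Between day 4 groups, 743, 3135 and 2310 genes had an unadjusted p under 0.05 for cardiac minus spontaneous, sorted minus cardiac and sorted minus spontaneous.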
